A study of Mus musculus with 9 samples.

Results

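Inhibitory interneurons of the hippocampus were followed through 10 genes chosen by symbol: Gad1, Gad2, Slc32a1, Pvalb, Sst, Npy, Vip, Cck, Crh and Lhx6. All 10 were found by symbol among the 47643 genes of the deposited count matrix, and all 10 had enough counts to be tested in each comparison. RNA had been sequenced from bulk hippocampus of mice at post natal week 6, with 3 libraries in each of 3 groups. MRL/mpj mice served as wild type. MRL/lpr mice develop a lupus-like disease and carry the lpr mutation of Fas, a death receptor gene. The third group, MRL/lpr+MSC, was the lpr genotype given mesenchymal stem cells, and the source, dose and route of those cells are not given in the sources used here. The sample labels call the MRL/lpr mice without cells untreated, whereas the series title names PBS. The labels also list the strain of every mouse as C57BL/6, whereas the series text names MRL-mpj and MRL-lpr. No label says that the libraries of a group came from separate mice. The study's text describes its hippocampal profiles of MRL/mpj and MRL/lpr as those of individual mice, and p-values measure the spread between these libraries.

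The labels of the 2 lpr groups need care. Expression values published with the study were compared with the libraries gene by gene, over genes with at least 20 counts, taking values as matching when their ratio lay within 0.1% of its median. For each published MRL/mpj column the library of that label and number matched for 100% of genes. For each published MRL/lpr column, 100% of genes matched a library carrying the MRL/lpr+MSC label, whereas the closest match to a library carrying the MRL/lpr label reached 1.01%. Which naming is right cannot be told from these sources. Groups are named here by the sample labels, and what is said of MRL/lpr or MRL/lpr+MSC depends on them. With the 2 labels exchanged, the comparison here named MRL/lpr+MSC against MRL/mpj, in which none of the 10 genes was called (limma voom, 2 at an unadjusted p under 0.05), would be the one of lupus-prone mice without cells against MRL/mpj. Of all genes tested in that comparison, 22.8% had an unadjusted p under 0.05.

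GABA is the main inhibitory transmitter of the forebrain. Gad1 and Gad2 encode the glutamate decarboxylases that make it, and Slc32a1 encodes the transporter that loads it into synaptic vesicles. Lhx6 is a transcription factor of interneurons born in the medial ganglionic eminence, which include cells that express the calcium-binding protein parvalbumin (Pvalb) or the peptide somatostatin (Sst). Neuropeptide Y (Npy), vasoactive intestinal peptide (Vip), cholecystokinin (Cck) and corticotropin-releasing hormone (Crh) are peptides released by further, partly overlapping classes. Cck is also made by hippocampal excitatory neurons, so its level in bulk tissue is not a measure of interneurons alone.

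Library totals ran from 19475804 to 24114666 counts in MRL/mpj, from 22438063 to 26912031 in MRL/lpr and from 20014975 to 21914100 in MRL/lpr+MSC. Values of 1 gene across libraries are given as CPM, counts scaled to the size of the library by TMM, in which 3 counts correspond to 0.105 to 0.163 CPM. Crh rested on 23 to 56 counts per library, Vip on 125 to 361 and Npy on 365 to 660, and the other 7 genes on at least 211. Markers of hippocampal excitatory neurons (15 genes, Camk2a the most abundant) were present in every library, with none at 0.

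Libraries within the lpr groups did not look alike. The summed CPM of the 15 hippocampal excitatory markers was 12693, 12596 and 12743 in MRL/mpj, 8856, 11514 and 7296 in MRL/lpr, and 11647, 9819 and 8507 in MRL/lpr+MSC (replicates 1, 2 and 3). Replicate 3 was the lowest library of both lpr groups. Summed CPM of 12 thalamic and habenular markers was 276, 217 and 277 in MRL/mpj, 598, 294 and 804 in MRL/lpr, and 208, 483 and 722 in MRL/lpr+MSC, with Zic1 the most abundant gene by its mean over the 9 libraries (Prkcd was in all 3 of MRL/mpj and MRL/lpr replicate 2, and Rora in MRL/lpr+MSC replicate 1) and Gbx2 at 0 in at least 1 library. For 14 striatal markers the sums were 173, 188 and 193 in MRL/mpj, 222, 233 and 304 in MRL/lpr, and 185, 239.8 and 361 in MRL/lpr+MSC, with Ppp1r1b the most abundant by that mean (Foxp1 was in all 3 of MRL/mpj and MRL/lpr+MSC replicate 1, and Penk in MRL/lpr replicate 3) and Isl1 at 0 in at least 1 library. Replicate 3 of both lpr groups thus held the highest thalamic and striatal sums and the lowest hippocampal ones. For 13 hypothalamic and amygdalar markers the sums were low, at 6.14, 3.60 and 3.15 in MRL/mpj, 22.4, 27.0 and 65.4 in MRL/lpr, and 6.30, 16.5 and 58.6 in MRL/lpr+MSC. Ngb had the highest mean of them, though Cartpt made up 22.7 CPM of the sum in MRL/lpr replicate 2 and Avp led in MRL/mpj replicate 1, and Oxt, Pmch, Hcrt, Nr5a1, Sim1, Otp and Lhx8 were at 0 in at least 1 library. The 10 choroid plexus markers, of which Ttr had the highest mean and Enpp2 led in the lowest library of each group, summed to 424, 948 and 1288 CPM for MRL/mpj, 1760, 13333 and 279 in MRL/lpr, and 238, 6875 and 978 in MRL/lpr+MSC, so that replicate 2 was the highest of both lpr groups.

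**Figure D1:**
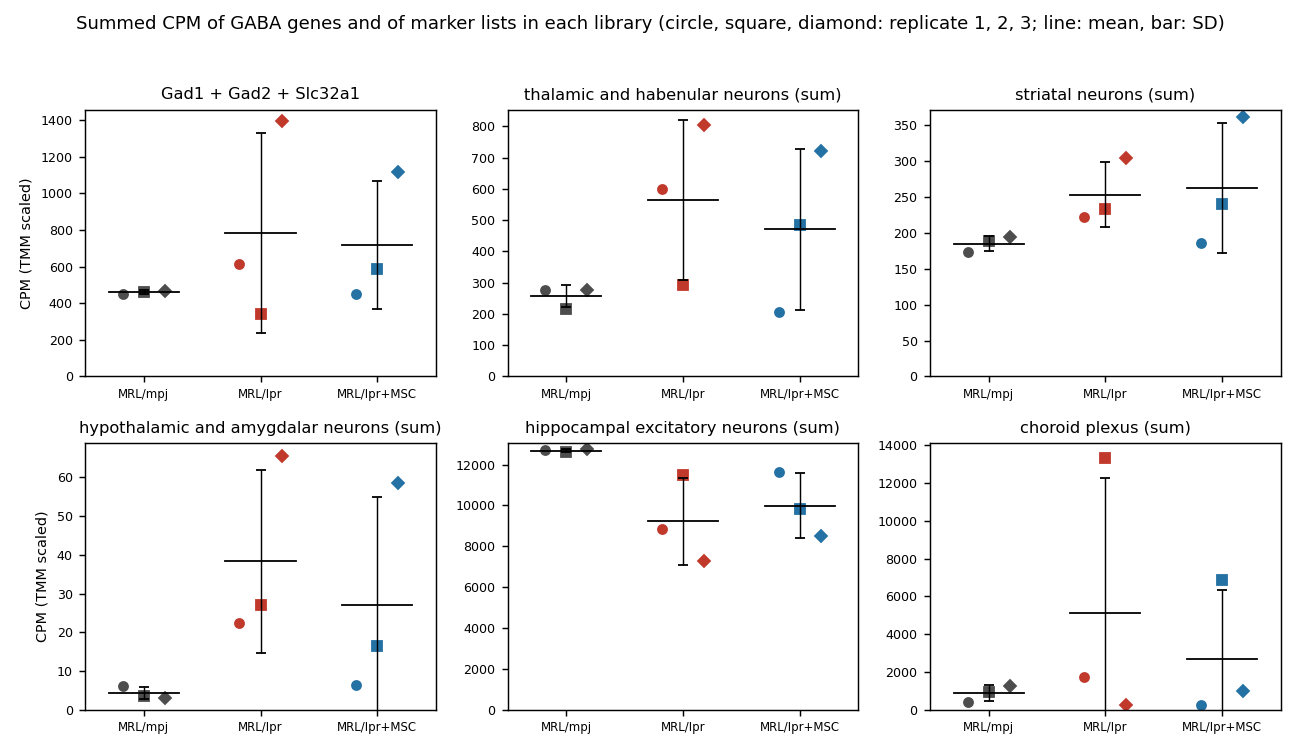
Summed CPM (TMM scaled, vertical axes) of Gad1, Gad2 and Slc32a1 and of 5 marker lists in the 3 groups (horizontal axes); symbols are libraries, lines means and bars SD, cut off at 0. Replicate 3 of MRL/lpr and of MRL/lpr+MSC has the highest GABA gene sums (1398 and 1117 CPM) and the highest thalamic sums.

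Levels of different genes were compared with the deposited FPKM values, which account for gene length. In MRL/mpj the order was Cck (425 ± 73.0 FPKM, SD, n = 3), Sst (183 ± 24.3), Npy (45.9 ± 6.45), Pvalb (44.6 ± 4.59), Gad1 (34.8 ± 0.645), Gad2 (23.0 ± 0.9745), Slc32a1 (21.6 ± 1.56), Vip (9.29 ± 0.504), Lhx6 (2.82 ± 0.169) and Crh (1.27 ± 0.339). The ranges of the 3 libraries overlapped only between the neighbours Npy and Pvalb and between Gad2 and Slc32a1. In MRL/lpr, Cck (301 ± 115) and Sst (128 ± 68.9) again had the highest means, but Gad2 (49.8 ± 41.2), Gad1 (47.8 ± 26.9) and Slc32a1 (43.4 ± 34.8) stood above Npy (27.7 ± 2.30) and Pvalb (22.2 ± 0.456). There, neighbouring ranges were separate only between Npy and Pvalb and between Pvalb and Vip (3.997 ± 0.490). Lhx6 (2.43 ± 1.05) and Crh (1.22 ± 0.529) were last, each overlapping its neighbours. In MRL/lpr+MSC the order was Cck (353 ± 109), Sst (156 ± 17.2), Gad1 (45.9 ± 17.3), Gad2 (43.3 ± 26.2), Slc32a1 (39.6 ± 23.1), Npy (32.9 ± 4.11), Pvalb (29.9 ± 6.47), Vip (7.74 ± 4.11), Lhx6 (3.38 ± 1.36) and Crh (1.35 ± 0.205). From Gad1 down to Pvalb each gene overlapped the next, as did Vip and Lhx6.

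The first question was how the interneuron genes stand in the lupus-prone hippocampus. Pvalb, Vip and Npy were lower in the libraries labelled MRL/lpr, and their groups did not overlap. These were 3 of the 10 genes at an adjusted p under 0.05 (limma voom, Benjamini-Hochberg over 16697 genes) and also with at least a 1.5-fold change. Of all genes tested, 4.68% were lower at an adjusted p under 0.05, 2.27% were lower with the fold rule as well, and 9.12% were called in either direction. Groups that did not overlap, with MRL/lpr below, were found for the same 3 genes and for 18.8% of all genes tested. In bulk tissue, fewer cells of a type and less RNA per cell cannot be told apart.

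Pvalb, the marker of fast-spiking interneurons, measured 42.3, 45.5 and 50.9 CPM in the MRL/mpj libraries and 22.9, 23.2 and 23.7 CPM in the MRL/lpr libraries. Every MRL/lpr library lay below every MRL/mpj library, and the MRL/lpr values were close together. The log2 fold change was -0.97 (95% confidence interval -1.19 to -0.75, adjusted p = 0.00366). Vip, a peptide of interneurons that mainly contact other interneurons, measured 13.6, 13.9 and 14.9 CPM in MRL/mpj, against 6.81, 6.29 and 5.31 CPM in MRL/lpr. The libraries of each group again lay close together and far from the other group. Its log2 fold change was -1.18 (interval -1.49 to -0.88, adjusted p = 0.00638). Npy, a peptide found in neurogliaform and many Sst cells, measured 21.8, 28.3 and 27.6 CPM in MRL/mpj, against 14.4, 16.2 and 16.8 CPM in MRL/lpr. The groups were separate but nearer to each other, with MRL/mpj replicate 1 the lowest of its group. Its log2 fold change was -0.71 (interval -1.02 to -0.39, adjusted p = 0.0274).

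Pvalb and Vip kept an adjusted p under 0.05 whichever single library was left out. Npy lost it without MRL/mpj replicate 2 (0.0983), MRL/mpj replicate 3 (0.115) or MRL/lpr replicate 1 (0.0929), with adjusted p from 0.0153 to 1.0 over its 15 alternatives. None of the 3 was called when tested against a 1.5-fold change, and Vip missed the threshold with all 9 libraries in 1 fit (adjusted p = 0.0550).

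**Figure D2:**
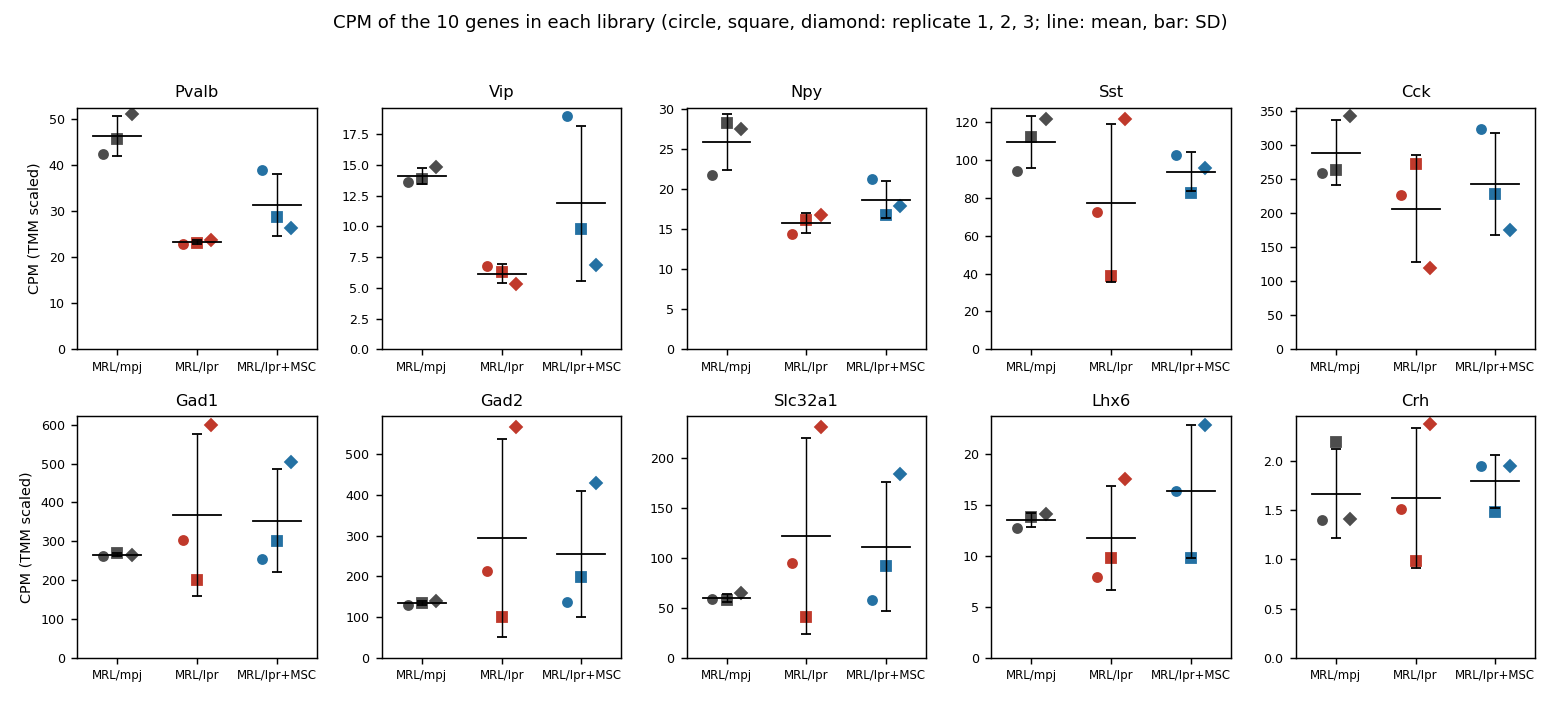
CPM (TMM scaled, vertical axes) of the 10 genes in each library of the 3 groups (horizontal axes); symbols are libraries, lines means and bars SD. Pvalb, Vip and Npy are lower in all 3 MRL/lpr libraries than in any MRL/mpj library, whereas Gad1, Gad2 and Slc32a1 spread widely within the lpr groups.

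The genes of GABA synthesis and loading showed another pattern. Gad1 measured 261, 269 and 266 CPM in MRL/mpj, against 303, 199.8 and 599.6 CPM in MRL/lpr. Gad2 measured 130.2, 134 and 139 CPM in MRL/mpj, against 214, 101 and 568 CPM in MRL/lpr. Slc32a1 measured 58.5, 57.3 and 64.5 CPM in MRL/mpj, against 94.3, 41.1 and 231 CPM in MRL/lpr. For all 3 genes the MRL/lpr libraries lay on both sides of MRL/mpj, with replicate 2 below it and replicate 3 far above. The log2 fold changes were 0.33 for Gad1 (interval -0.53 to 1.20), 0.79 for Gad2 (-0.56 to 2.14) and 0.70 for Slc32a1 (-0.69 to 2.09), and none was called. Without MRL/lpr replicate 3 they were -0.09, 0.14 and 0.08, and without MRL/lpr replicate 2, the library with the highest choroid plexus sum, they were 0.69, 1.37 and 1.30 (adjusted p = 0.134, 0.0664 and 0.0664). The library that was highest for these genes was also the one highest in the thalamic, striatal and hypothalamic sums and lowest in the hippocampal excitatory sum, and the part of that in the result was not tested.

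Sst, Lhx6, Cck and Crh were not called. Sst measured 94.3, 112 and 121 CPM in MRL/mpj, against 72.2, 38.6 and 121 CPM in MRL/lpr, a log2 fold change of -0.63 (interval -1.54 to 0.29, adjusted p = 0.313). MRL/lpr replicate 3 lay just above the highest MRL/mpj library (121.4 against 121.3 CPM), and the other 2 MRL/lpr libraries below all 3. Without MRL/lpr replicate 2 the log2 fold change of Sst was -0.22, and without MRL/lpr replicate 3 it was -1.01 (adjusted p = 0.0751). Lhx6 measured 12.7, 13.8 and 14.05 CPM in MRL/mpj, against 7.90, 9.82 and 17.5 CPM in MRL/lpr (log2 fold change -0.30). Its replicate 3 lay above MRL/mpj and the others below, and without that library Lhx6 was lower by a log2 fold change of -0.62 with an adjusted p of 0.0440, against 0.0440 to 1.0 over its 15 alternatives. Cck measured 260.2, 264 and 344 CPM in MRL/mpj, against 227, 273 and 120.4 CPM in MRL/lpr (log2 fold change -0.54), with -0.79 when MRL/lpr replicate 2 was left out and -0.19 when MRL/lpr replicate 3 was. Crh lay under 2 CPM in all of these libraries but MRL/mpj replicate 2 (2.19 CPM) and MRL/lpr replicate 3 (2.38 CPM), and the interval of its log2 fold change ran from -0.996 to 0.78.

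The peptide and subtype markers were also set against the summed CPM of Gad1, Gad2 and Slc32a1, genes shared by GABA neurons. Pvalb came to 9.40%, 9.89% and 10.8% of that sum in MRL/mpj, 3.75%, 6.78% and 1.70% in MRL/lpr, and 8.65%, 4.86% and 2.35% in MRL/lpr+MSC. Vip came to 3.03%, 3.01% and 3.17% in MRL/mpj, 1.11%, 1.84% and 0.379% in MRL/lpr, and 4.21%, 1.66% and 0.615% in MRL/lpr+MSC. Sst came to 21.0%, 24.3% and 25.8% in MRL/mpj, 11.8%, 11.3% and 8.68% in MRL/lpr, and 22.8%, 13.97% and 8.57% in MRL/lpr+MSC. In these ratios all 3 MRL/lpr libraries lay below MRL/mpj for Pvalb, Vip and Sst, and also for Npy and Crh, as they did for 5.83% of 16694 genes tested. They did not for Cck and Lhx6, since MRL/lpr replicate 2 stood at 79.9% for Cck, above MRL/mpj (57.4% to 73.3%), and at 2.87% for Lhx6, within the MRL/mpj range (2.82% to 3.00%). MRL/lpr+MSC replicate 1 lay near, within or above the MRL/mpj range for Pvalb, Sst and Vip. The sum itself was 449.6, 461 and 469.5 CPM for MRL/mpj, 612, 342 and 1398 CPM in MRL/lpr, and 449.9, 589.7 and 1117 CPM in MRL/lpr+MSC, so the ratios carry the spread of the GABA genes.

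Some other interneuron markers were lower in MRL/lpr as well. Of 25 further subtype markers, 24 were tested, 6 were lower and 1 was higher at an adjusted p under 0.05 (4.68% of all genes tested were lower), with a median log2 fold change of -0.38 against 0.03 over all genes tested. Crhbp, which binds Crh, stood at -1.48 as log2 fold change (adjusted p = 0.0144) and Adarb2, a marker of caudally derived interneurons, one of -1.45 (0.0233). Kcnc2, a potassium channel subunit of fast-spiking cells, had a log2 fold change of -0.70 (0.0266), the perineuronal net gene Hapln1 one of -0.68 (0.0141) and the cannabinoid receptor gene Cnr1 one of -0.64 (0.0203). The 1 higher gene was Sncg, at 1.78 (0.00723). Of 17 interneuron transcription factors, Npas1 (-0.72, adjusted p = 0.0151) and Satb1 (-0.34, 0.0268) were lower and Nr2f2 (0.81, 0.0128) was higher, and the list's median log2 fold change was 0.15, with 10 of the 17 above 0.

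Among 30 other neuropeptide genes, 22 were tested, and Grp (log2 fold change -1.69, adjusted p = 0.00898) and Nppc (-1.25, 0.0306) were lower whereas Nxph4 (1.48, 0.0458) was higher. For this list and those that follow, 9.12% of all genes tested were called in either direction. All 3 neuropeptide genes were scarce, with MRL/mpj means of 3.04, 3.90 and 0.719 CPM. Of the 18 genes in the list of receptors and binding protein for the member peptides, 14 were tested. Crhr2, a receptor of the Crh family, was higher (2.65, adjusted p = 0.0241), and Crhbp was the 1 lower gene. Crhr2 was scarce in MRL/mpj, at 0.699, 1.89 and 2.22 CPM (14, 44 and 41 counts). It measured 7.06, 8.80 and 12.5 CPM in MRL/lpr, and replicate 3 was its highest library in both lpr groups. The somatostatin receptor gene Sstr4 had a mean of 26.5 CPM in MRL/mpj, against 15.9 CPM in MRL/lpr without being called (adjusted p = 0.0516), and the Npy receptor genes Npy1r (30.8 and 26.6 CPM) and Npy2r (46.7 and 38.3 CPM) were not called either. Of 11 genes for peptide processing and dense core vesicles, Cadps2 (-0.79, adjusted p = 0.00484) and Scg5 (-0.48, 0.0292) were lower.

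Some markers of other neurons were also lower in MRL/lpr. Of 15 hippocampal excitatory markers 3 were lower, against 4.68% of all genes tested, with Fibcd1 (log2 fold change -1.10) and Kcnq5 (-0.81) among them, none was higher, and the list's median of -0.43 was close to the -0.42 of the 10 interneuron genes. The 10 pan-neuronal markers, Snap25 the most abundant by mean and none at 0, had 1 lower gene, Syt1 (-0.53), and a median of -0.21. Their summed CPM was 7848, 7422 and 8528 in MRL/mpj, 5870.2, 6556 and 6431 in MRL/lpr, and 9162, 6256 and 6678 in MRL/lpr+MSC, so all 3 MRL/lpr libraries lay below MRL/mpj and MRL/lpr+MSC replicate 1 above it. The part of these markers in the lower Pvalb, Vip and Npy was not tested. Of the other marker lists, the choroid plexus, thalamic, hypothalamic and oligodendrocyte lists had no gene called. That does not show that they were alike in the 2 groups. All 10 choroid plexus genes had positive log2 fold changes, with a median of 1.44. Of the 13 hypothalamic genes 4 were tested, all positive, with a median of 2.67. The thalamic median was 0.24 over 11 genes tested and the oligodendrocyte one -0.25 over 9. Sox9 (1.31) was the 1 astrocyte marker called, Cx3cr1 (-0.45) and P2ry12 (-0.56) were the microglial and Cldn5 (0.74) and Pdgfrb (0.44) the vascular ones. Rgs9 (0.97) and Foxp1 (-0.61) were called among striatal markers, and Fezf2 (-0.82), Lamp5 (-0.54) and Kcnh7 (-1.58) among neocortical ones. Lamp5 is also in the list of further interneuron subtype markers, where it is 1 of the 6 lower genes.

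The comparison of MRL/lpr+MSC with MRL/lpr asks what the stem cells changed in the lpr hippocampus. None of the 10 genes was called, and neither was any of the 16758 genes tested (0% by either rule, limma voom), and limma-trend called none either, while 646 genes (3.85%) had an unadjusted p under 0.05, Pvalb among them, a share below that expected on average with no change. Pvalb measured 38.94, 28.7 and 26.2 CPM in the libraries labelled MRL/lpr+MSC, Vip 18.9, 9.79 and 6.87 CPM and Npy 21.3, 16.9 and 17.9 CPM. For these 3 genes each MRL/lpr+MSC library lay above each MRL/lpr library. This held for 4.51% of all genes tested, which is no expectation for genes already singled out as low in the same MRL/lpr libraries, shared with the first comparison. The margins were narrow for Npy, with 16.9 against 16.8 CPM, and for Vip, with 6.87 against 6.81 CPM. The log2 fold changes were 0.39 for Pvalb (interval 0.03 to 0.75), 0.78 for Vip (-0.16 to 1.71) and 0.23 for Npy (-0.06 to 0.53). Replicate 1 was the highest MRL/lpr+MSC library in all 3 genes.

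Gad1, Gad2 and Slc32a1 had log2 fold changes of 0.01, -0.04 and 0.03 in that comparison, with wide intervals (for Gad2 -1.71 to 1.63). Their MRL/lpr+MSC values again spread widely, Gad2 from 138 to 430.3 CPM. The sign of the Gad2 value turned when single libraries were left out, over a range of -0.64 to 0.63. Without both libraries numbered 3 it was 0.18, an alternative chosen after seeing the data. The intervals were wide, so a p above the threshold does not show that these genes were alike in the 2 groups. Sst, Lhx6, Cck and Crh had log2 fold changes between 0.21 and 0.49 and were not called.

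MRL/lpr+MSC was also compared with MRL/mpj, which shares its MRL/mpj libraries with the first comparison and its MRL/lpr+MSC libraries with the second. None of the 10 genes was called, against 4.89% of 16196 genes at an adjusted p under 0.05 and 3.36% with the fold rule as well. Pvalb and Npy lay lower in every MRL/lpr+MSC library than in any MRL/mpj library, as did 13.6% of all genes tested. Their log2 fold changes were -0.60 (interval -0.94 to -0.25, adjusted p = 0.0654) and -0.48 (-0.81 to -0.16, 0.0949). Vip overlapped, since MRL/lpr+MSC replicate 1 at 18.9 CPM lay above all 3 MRL/mpj libraries and the other 2 below.

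What was called in this comparison depended on single libraries and on how they were weighted. In limma voom with library quality weights, Pvalb (log2 fold change -0.70, adjusted p = 0.0129) and Npy (-0.53, 0.0410) were called with every library kept. Leaving out MRL/lpr+MSC replicate 1 changed the calls as well. Without it, Pvalb (log2 fold change -0.75, adjusted p = 0.00612), Npy (-0.57, 0.0348) and Vip (-0.78, 0.0218) were all called, and 2571 genes in place of 792 had an adjusted p under 0.05. Over the 15 alternatives the adjusted p ran from 0.00612 to 1.0 for Pvalb, 0.0348 to 1.0 for Npy and 0.0218 to 1.0 for Vip. That library stood nearer to MRL/mpj than the other 2 MRL/lpr+MSC libraries in the hippocampal excitatory sum (11647 CPM) and the thalamic sum (208 CPM), though below all 3 MRL/mpj libraries in both. Its oligodendrocyte sum of 4451 CPM lay far from theirs (7939, 7836 and 8505 CPM). Of the 24 further subtype markers tested, Adarb2 (-1.49, adjusted p = 0.0142), Hapln1 (-0.46, 0.0376) and Pthlh (-1.78, 0.0232) were lower and Calb2 (3.06, 0.0491) was higher. Calb2 is also in the thalamic list, and its MRL/mpj mean of 7.71 CPM stood against 68.5 CPM. Adcyap1 (1.23, 0.0439) was the 1 called of 21 other neuropeptide genes tested, Pcsk1 (0.89, 0.0181) the 1 of 11 processing genes and Sox6 (0.65, 0.0254) the 1 of 16 interneuron transcription factors, all higher, where 4.89% of all genes were called.

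Among 14895 genes outside the 10 with a mean of at least 1 CPM, the patterns most like Pvalb over the 9 libraries were those of Vps50 (Pearson r = 0.994 of log2 CPM) and Anks1b (r = 0.987). For Npy, Ddx1 (r = 0.980) was among the nearest, and for Vip they were Zfp365 (r = 0.995) and Mturn (r = 0.992). Anks1b measured 445.0, 465 and 465 CPM for MRL/mpj, 316, 320.4 and 317 in MRL/lpr, and 421, 365 and 321 in MRL/lpr+MSC. Zfp365 measured 404, 399.6 and 388 CPM for MRL/mpj, 241, 239 and 213 in MRL/lpr, and 474, 314 and 244.5 in MRL/lpr+MSC. Both shared with their member the order of the group means and the fall from replicate 1 to replicate 3 in MRL/lpr+MSC. The order of the libraries within MRL/lpr differed between Anks1b and Pvalb, and that within MRL/mpj between Zfp365 and Vip. These values are descriptions over libraries that fall into 3 groups, picked as the highest of many, and say nothing of shared function.

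In the mouse annotation (GENCODE, GRCm38, the build of the files) the 10 genes are protein coding. Pvalb (ENSMUSG00000005716) spans chr15:78191114-78206400 on the minus strand, Npy (ENSMUSG00000029819) chr6:49822710-49829507 on the plus strand, Vip (ENSMUSG00000019772) chr10:5639218-5647617 on the plus strand and Sst (ENSMUSG00000004366) chr16:23889573-23890958 on the minus strand. None of these 4 overlaps another annotated gene. Gad1 (chr2:70553072-70602014, plus strand) overlaps the antisense gene Gad1os, and Slc32a1 (chr2:158610767-158615748, plus strand) overlaps the antisense gene Gm14205. Whether the counting used strand is not given in the sources used here, so reads from those antisense genes may be included.

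Promoter sequences from RefSeq (GRCm38.p6, 250 bases before to 50 after the start) matched 9 of the 10 genes in 12 windows. They were searched on both strands for the cyclic AMP response element TGACGTCA, for its half-site TGACG, which lies within it and was added after seeing the sequences, and for the Nr4a monomer site AAAGGTCA. The full element was in the Sst window and in 1.79% of all 32851 promoters. The half-site was in the windows of 4 genes, Sst, Vip, Cck and Gad2, and in 20.8% of all promoters. The Nr4a site was in none of the 12 windows and in 1.51% of all promoters. The 250 bases before the start are shown for the 3 genes that were lower in MRL/lpr and for Sst, a peptide gene that was not called and the 1 with the full element, so that they can be read side by side. Pvalb lies at chr15:78206401-78206650 (minus strand, the first of 2 windows), Vip at chr10:5638968-5639217 (plus), Npy at chr6:49822460-49822709 (plus) and Sst at chr16:23890845-23891094 (minus). Capitals mark a match to the element or its half-site, 48 bases before the start in Sst and 79 in Vip. A match here is a description of letters, and binding was not measured.
Pvalb: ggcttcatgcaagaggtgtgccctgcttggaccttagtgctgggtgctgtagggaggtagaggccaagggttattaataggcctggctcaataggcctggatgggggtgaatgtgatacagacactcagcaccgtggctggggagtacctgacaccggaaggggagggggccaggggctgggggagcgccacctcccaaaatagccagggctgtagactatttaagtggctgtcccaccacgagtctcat
Vip: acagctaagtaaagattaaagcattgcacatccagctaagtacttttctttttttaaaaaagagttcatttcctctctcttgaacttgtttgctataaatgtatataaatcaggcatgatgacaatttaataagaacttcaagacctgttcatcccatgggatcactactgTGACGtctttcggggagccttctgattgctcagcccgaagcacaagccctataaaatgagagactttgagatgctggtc
Npy: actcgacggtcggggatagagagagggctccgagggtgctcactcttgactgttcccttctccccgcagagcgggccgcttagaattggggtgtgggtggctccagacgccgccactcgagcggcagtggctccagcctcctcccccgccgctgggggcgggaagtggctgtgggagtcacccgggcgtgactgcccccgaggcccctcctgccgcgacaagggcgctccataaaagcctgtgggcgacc
Sst: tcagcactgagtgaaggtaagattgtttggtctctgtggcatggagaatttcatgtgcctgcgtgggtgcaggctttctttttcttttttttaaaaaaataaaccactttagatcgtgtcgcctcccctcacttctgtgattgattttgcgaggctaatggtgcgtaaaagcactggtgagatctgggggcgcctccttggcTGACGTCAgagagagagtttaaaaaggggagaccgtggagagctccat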

How the data were processed

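Poly-A libraries were made from hippocampal RNA. The authors' methods name STAR and HTSeq with mm10, and the submitters' notes name TopHat2. The deposited counts per gene were used for tests, and the FPKM that the authors deposited for levels between genes. Counts were scaled by TMM over all genes (own function, trimming 30% of log ratios and 5% of levels). Genes needed the CPM of 10 counts in a median library in at least 3 libraries, and at least 15 counts in total. Each comparison was fitted on its 6 libraries by voom in limma 3.58.1 (with statmod 1.5.0 under R 4.3.3), with robust empirical Bayes and Benjamini-Hochberg adjustment, tested on simulated data. The simulation gave every gene and library the same dispersion. It therefore does not show how the test does on libraries as uneven as those of the lpr groups. The planned edgeR quasi-likelihood test and DESeq2 alternative were not run, because the unit of the matrix could not be checked in its format, and limma voom, a listed alternative, took their place. TMM over the genes tested gave counts closer to earlier ones and was for a time used in its place. The all-gene scaling, which came first, was kept and the other is an alternative. The 10 genes and all lists were chosen with earlier results of these data known. Named list genes are at most the 6 of lowest p per list and comparison with an adjusted p under 0.05, receptors, neuropeptides and the most abundant gene. Some genes of the lists and of the pattern search are not reported here.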

Additional observations from a re-analysis of the deposited data

How the results depend on the processing

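In MRL/lpr against MRL/mpj, Pvalb was called under 14 of 15 alternatives, Vip under 13 and Npy under 11, all 3 with the same direction under each. In MRL/lpr against MRL/mpj, the test against a 1.5-fold change called 102 genes by both rules and 0 of the 10, and in MRL/lpr+MSC against MRL/mpj it called 100 genes, since it asks for more than the main test. Library quality weights, added after seeing the data, gave 3569 and 2064 genes (adjusted p alone and with the fold rule) in MRL/lpr against MRL/mpj and 2070 and 1181 in MRL/lpr+MSC against MRL/mpj, with 2 and 1 of the 10 genes in the latter; the cause was not tested. TMM over the genes tested, also added, called 1553 and 967 genes in place of 1523 and 959, and 812 and 556 in place of 792 and 544, with the same number of the 10 genes. No label says that replicate numbers link the libraries. Correlations of same-numbered deviations ran from -0.21 to 0.35. Replicates 2 and 3 correlated best with their own number in each comparison, whereas replicate 1 did so in none. What same-numbered libraries may share was not tested, and the main fit has no block for it. With the replicate block, 1861 genes were called in MRL/lpr against MRL/mpj and 305 and 286 in MRL/lpr+MSC against MRL/mpj.

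Leaving out 1 library moved the first comparison from 129 to 2623 genes (129 to 1477 with the fold rule), with 228 without MRL/mpj replicate 1, 207 without MRL/mpj replicate 2, 129 without MRL/mpj replicate 3, 331 without MRL/lpr replicate 1 and 2623 without MRL/lpr replicate 2. It moved MRL/lpr+MSC against MRL/mpj from 164 to 2571 genes (159 to 1350 with the fold rule) and from 0 to 3 of the 10 genes (0 to 2 with the fold rule). No alternative called a gene in MRL/lpr+MSC against MRL/lpr. Log2 fold changes that turned sign, none of them called, ranged over left-out libraries from -0.094 to 0.69 (Gad1) and -0.40 to 0.17 (Crh) in the first comparison. In MRL/lpr+MSC against MRL/lpr they ranged from -0.36 to 0.45 (Gad1), -0.64 to 0.63 (Gad2), -0.59 to 0.67 (Slc32a1), -0.019 to 0.82 (Sst), -0.078 to 0.52 (Cck) and -0.076 to 0.52 (Crh). In MRL/lpr+MSC against MRL/mpj they ranged from -0.022 to 0.31 (Crh) and -0.12 to 0.51 (Lhx6). Gad2 in MRL/lpr+MSC against MRL/lpr was also 0.015 with the replicate block, 0.24 with library quality weights and 0.18 without both libraries numbered 3. Crh rested on the fewest counts of the 10 genes, 23 to 56 per library. The planned DESeq2 alternative was not run.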
